A study of Mus musculus with 2 samples.

Results

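The genes described here are the collagens of mouse skin, taken as every gene on the array whose symbol has the form Col, a type number, a and a chain number, except Col17a1, which was left out by rule. They number 35 of the 12393 genes that could be named, and 57 probe sets read them. A further 8 collagen genes of the mouse gene table, Col6a4, Col6a5, Col6a6, Col8a2, Col23a1, Col24a1, Col27a1 and Col28a1, had no named probe set on the array. The tissue was back skin of 10-day-old mice, and 1 array held RNA of transgenic mice whose keratinocytes carry a constitutive active aryl hydrocarbon receptor (AhR) and 1 array held RNA of their non-transgenic (wild type) littermates. The transgenic sample is titled K14Ahr, a title that carries the short name of the basal keratinocyte keratin Krt14, and the labels give no strain, no sex and no number of animals per array. With 1 array per genotype there is no replicate error, no difference could be tested, and every value below compares these 2 arrays only.

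Collagens are proteins of 3 chains wound into a triple helix. In skin, dermal fibroblasts make most of the fibrillar types, which bear tension, while type IV networks form the sheet on which the epidermis, vessels, nerves and muscle fibres rest. FACIT collagens (fibril-associated collagens with interrupted triple helices) sit on the surface of fibrils, and type VI forms beaded filaments around cells. AhR senses dioxins and related compounds and binds DNA together with ARNT at the xenobiotic response element, and the active form needs no ligand. The question put to these arrays is how collagen transcripts of the whole skin stand when the receptor is active in the epidermis, a layer that makes few of them itself.

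Each probe set has 1 signal per array, and a difference is given as the log2 ratio of the transgenic over the wild-type signal. Signals were raised to a floor of 34.7, the 40th percentile of all signals, so a ratio with 1 array below the floor is a bound. The brightest probe set by summed signal stands for a gene, which counts as measured when this probe set exceeds the floor on 1 array or both. The receptor's target Cyp1a1 read 1802 in transgenic skin and 40.8 in wild-type skin, and the probe sets of Ahr itself gave log2 ratios of 0.32 and 0.44. Of the 35 collagen genes 26 were measured (74.3%), against 71.8% of the other named genes, and 24 lay above the floor on both arrays. The 9 genes below the floor on both arrays were Col2a1, Col4a4, Col9a2, Col9a3, Col10a1, Col19a1, Col20a1, Col22a1 and Col26a1, and the 19 probe sets below it, which include further probe sets of measured genes, read between 0.6 and 23.7 on the transgenic array and between 0.6 and 34.0 on the wild-type array.

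The collagens as a family read nearly alike on both arrays, with small differences that ran in opposite directions in different types. Probe sets of the same collagen gene also differed in sign in 7 of 13 pairs above the floor. They lay a median of 0.37 apart on the log2 scale, as far as many of these differences. Of the 26 measured genes none was at least 2-fold higher, where 2.27% of all measured genes were, and 1, Col4a6, was at least 2-fold lower, where 1.09% of all measured genes were. At 1.5-fold, Col11a2 and Col12a1 were higher (6.8% of all measured genes) and Col4a5 and Col4a6 lower (6.38% of all). The signs were evenly divided, 13 genes above 0 and 13 below, while 56.4% of all measured genes lay below 0. That share is also the background for the sign counts of the lists below. The median log2 ratio was 0.02 for the measured collagens and -0.05 for all 8894 measured genes. These counts do not set the collagens apart from the background. Of the 38 measured probe sets 3 were at least 1.5-fold higher and 2 lower, where 6.31% and 6.39% of all measured probe sets were. By class, the median was -0.01 over 8 fibrillar genes, -0.09 over 8 basement membrane genes, -0.41 over 4 FACIT genes and 0.31 over 6 other collagens.

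**Figure D1:**
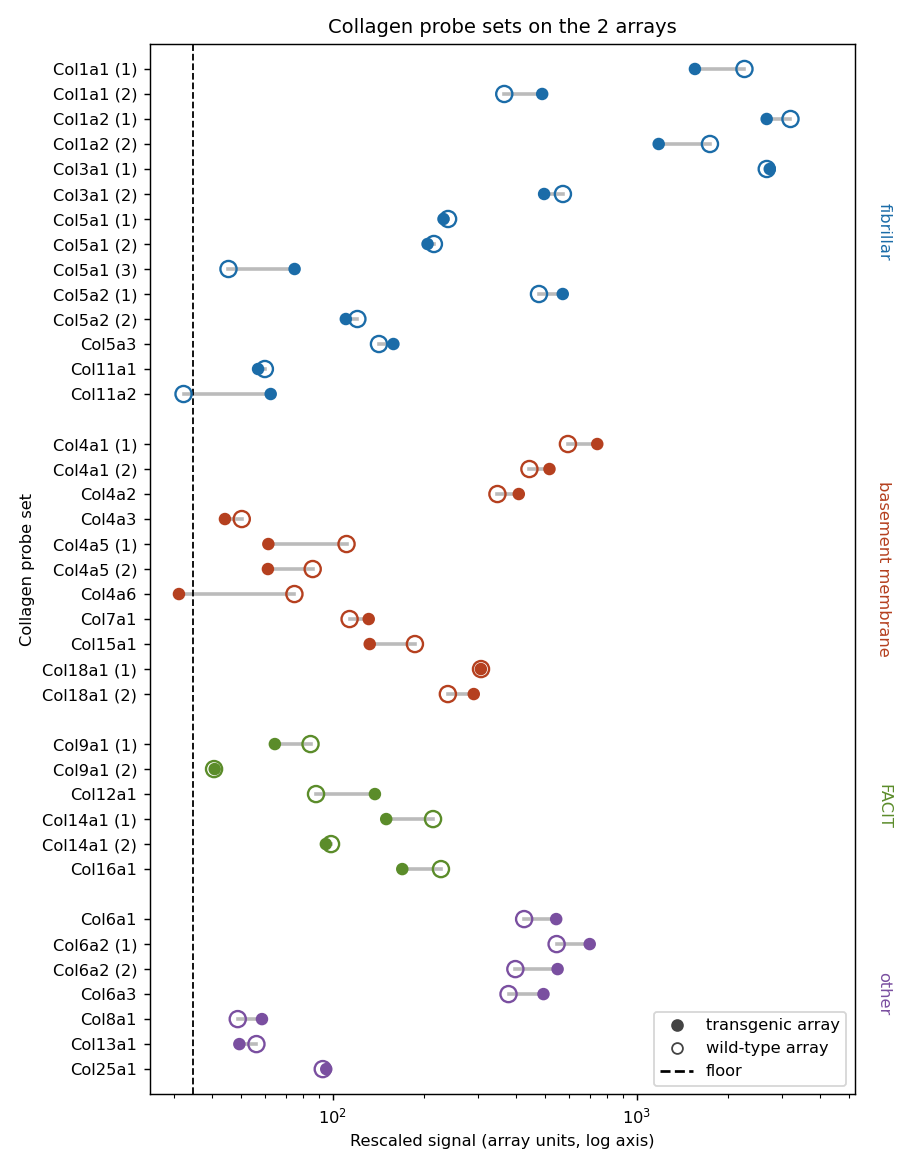
Rescaled signal (array units, log axis) of the 38 measured collagen probe sets, grouped by class; filled points are the transgenic array, open circles the wild-type array, and numbers in brackets rank the probe sets of 1 gene from bright to dim. Most pairs of points lie close together, and the widest gaps are those of Col4a6, Col4a5 and Col11a2.

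The fibrillar collagens form the tensile fibrils of the dermis. Type I, the main collagen of skin, is built from the products of Col1a1 and Col1a2, and 3 of its 4 probe sets read lower on the transgenic array. The brighter probe set of Col1a1 read 1552.9 in transgenic skin and 2259.5 in wild-type skin, a log2 ratio of -0.54. The dimmer one read 488.4 in transgenic skin and 366.5 in wild-type skin, a log2 ratio of 0.41. The probe sets of Col1a1 therefore differ in direction, and their distance of 0.96 on the log2 scale was reached by 1.95% of the 5342 pairs of probe sets of other genes. For Col1a2 both probe sets read lower, 2673.6 against 3201.8 (transgenic against wild type, log2 ratio -0.26) and 1180.2 against 1739.9 (-0.56). With the 2 Col1a1 ratios averaged the gene stood at -0.06, so the direction of type I rests on Col1a2 and on 1 of the Col1a1 probe sets. All of these differences were under 1.5-fold.

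Col3a1 encodes the chain of type III collagen, which is abundant in young skin and mixes with type I in the same fibrils. Its brighter probe set read 2736.8 in transgenic skin and 2675.2 in wild-type skin (log2 ratio 0.03), and the other read 495.6 and 571.4 on the transgenic and wild-type arrays (-0.21). Neither is far from equality, and the signs are opposite. The brighter reading lay below 0, at -0.03 at the lowest, with quantile normalization and with lowess centring.

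Type V collagen nucleates type I fibrils and limits their width, with chains from Col5a1, Col5a2 and Col5a3. Of 3 probe sets of Col5a1, the bright ones read 231.3 and 205.0 on the transgenic array against 239.5 and 215.1 on the wild-type array. The dim one read 74.9 in transgenic skin and 45.4 in wild-type skin, a log2 ratio of 0.72. As in Col1a1, a dimmer probe set of Col5a1 read higher on the transgenic array while the brighter ones did not. Col9a1 and Col18a1 had the same order of signs, and Col3a1 and Col5a2 the reverse. The dim reading of Col5a1 depends on the floor and came to 0.08 with the floor at the 60th percentile. Col5a2 read 570.7 in transgenic skin and 476.7 in wild-type skin by its bright probe set (log2 ratio 0.26), and 110.4 and 120.5 by the dim one (-0.13). Col5a3 read 158.3 in transgenic skin and 141.9 in wild-type skin (0.16), and its second probe set was below the floor on both arrays.

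The fibrillar collagens best known from cartilage were dim or below the floor. Col11a2, a chain of type XI, read 62.5 in transgenic skin and 32.3 in wild-type skin. The wild-type value lies below the floor, so the gene was at least 1.80-fold higher. Col11a1, its partner chain, read 56.8 in transgenic skin and 59.8 in wild-type skin (log2 ratio -0.07), so the chains of type XI were not higher together. Col2a1, the main fibrillar chain of cartilage, read 9.7 and 18.1 on the transgenic and wild-type arrays, both below the floor. Of 8 cartilage markers only Acan and Sox9 were above the floor, at -0.14 and 0.31, while Matn1, Matn3, Hapln1, Comp, Chad and Cnmd were below it on both arrays.

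**Figure D2:**
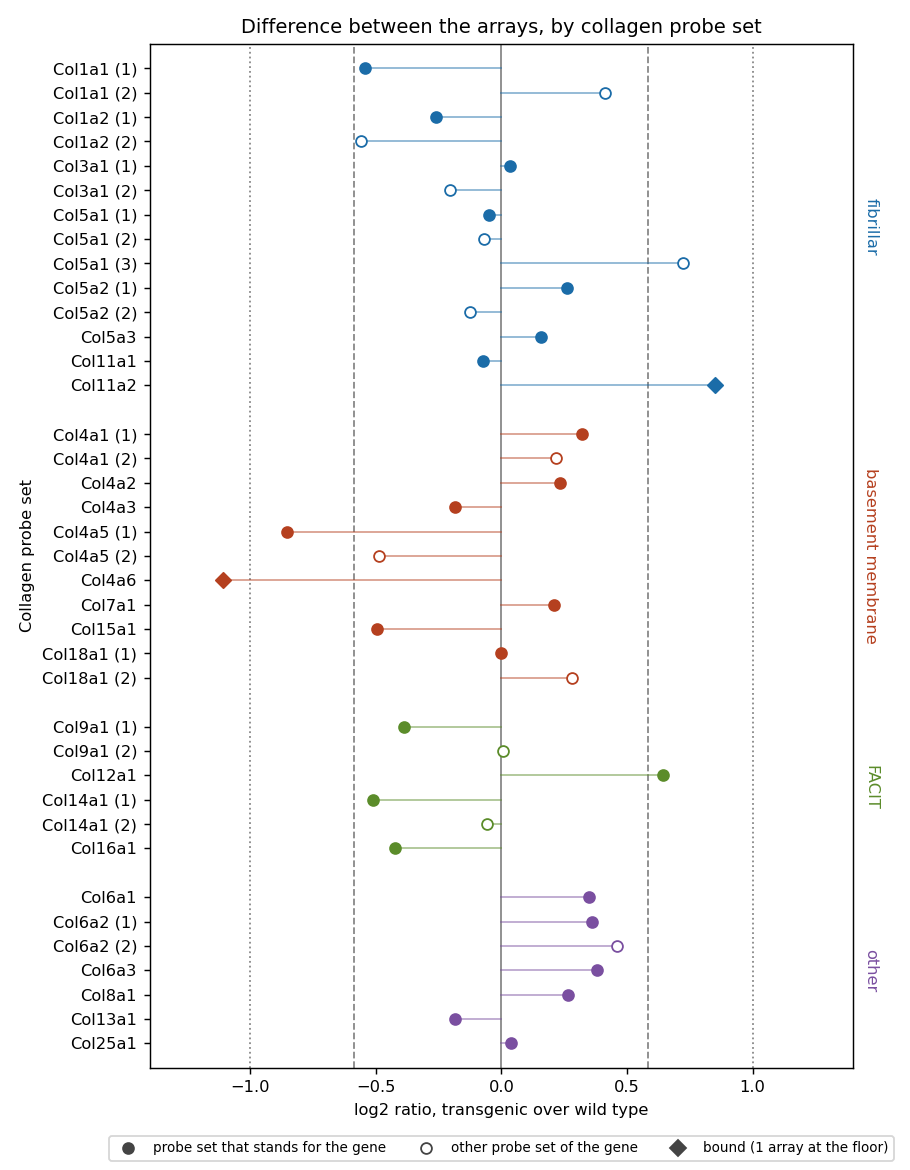
Log2 ratio of the transgenic over the wild-type signal for the same 38 probe sets; filled points stand for the gene, open points are its other probe sets, diamonds are bounds with 1 array at the floor, dashed lines mark 1.5-fold and dotted lines 2-fold. Only Col4a6 passes a dotted line, and the type VI probe sets lie together between 0.35 and 0.46.

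The basement membrane class held the lowest log2 ratios of single measured collagens, and within type IV the chains went in different directions. Type IV has 6 chains that assemble in fixed combinations: alpha1 with alpha2 in nearly all basement membranes, alpha3 with alpha4 and alpha5 in kidney and a few other sites, and alpha5 with alpha6 in membranes that include the one under the epidermis. Their genes lie in head-to-head pairs that share a stretch of upstream sequence, Col4a1 with Col4a2, Col4a3 with Col4a4 and Col4a5 with Col4a6. The last pair, on the X chromosome, gave the lowest log2 ratios of all measured collagens, and the sequence upstream of each gene is shown for that reason. The stretches are from RefSeq (GRCm38.p6), 5′ to 3′ on the strand of each gene, cut before the outermost annotated start of the gene. They are Col4a5 at chrX:141475169-141475369 on the plus strand and Col4a6 at chrX:141474096-141474326 on the minus strand, and capitals mark a CCAAT box.
Col4a5: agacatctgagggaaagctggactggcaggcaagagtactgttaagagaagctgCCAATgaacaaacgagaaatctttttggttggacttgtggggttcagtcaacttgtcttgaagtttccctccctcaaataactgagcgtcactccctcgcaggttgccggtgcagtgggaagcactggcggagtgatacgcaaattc
Col4a6: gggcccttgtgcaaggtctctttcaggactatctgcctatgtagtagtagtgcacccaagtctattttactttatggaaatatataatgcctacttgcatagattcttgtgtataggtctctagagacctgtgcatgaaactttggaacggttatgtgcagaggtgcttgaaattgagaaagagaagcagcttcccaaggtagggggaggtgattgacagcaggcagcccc

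Col4a6 read 31.2 in transgenic skin and 74.8 in wild-type skin. The transgenic value lies just below the floor, so the gene was at least 2.16-fold lower. With the floor at the 60th percentile its log2 ratio was -0.08, and with 16 added to each signal instead of a floor it was -0.94, so the 2-fold call depends on how low signals are handled. The second probe set of Col4a6 read 4.9 in transgenic skin and 21.8 in wild-type skin, below the floor on both. Col4a5 read 61.4 in transgenic skin and 111.0 in wild-type skin by 1 probe set (log2 ratio -0.85) and 61.2 and 85.9 by the other (-0.49). Both probe sets of Col4a5 thus read lower on the transgenic array. The Col4a6 reading exceeded the floor on the wild-type array only, so its ratio could only come out lower and adds no separate evidence of direction.

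The alpha1 and alpha2 genes read higher on the same array. Col4a1 gave 741.2 in transgenic skin against 593.5 in wild-type skin (log2 ratio 0.32) and, by its second probe set, 516.1 against 443.4 (0.22). Col4a2 gave 409.1 in transgenic skin and 348.0 in wild-type skin (0.23). The brighter readings of the partners differ by 0.09 on the log2 scale, less than the median distance of 0.21 between probe sets of other single genes. Other partner chains lay further apart than 0.21. The first chain minus the second gave -0.28 for Col1a1 and Col1a2, -0.31 for Col5a1 and Col5a2, and at least 0.25 for Col4a5 and Col4a6. The type VI chains, given below, lay closer. Of the remaining pair, Col4a3 read 44.2 in transgenic skin and 50.2 in wild-type skin (-0.18), and Col4a4 read 19.3 and 34.0 on the transgenic and wild-type arrays, both below the floor. The median over the 5 measured type IV genes was -0.18.

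The other collagens of basement membrane zones did not follow a common direction. Col7a1, whose product forms the anchoring fibrils that tie the epidermal basement membrane to the dermis, read 131.3 in transgenic skin and 113.6 in wild-type skin (log2 ratio 0.21). Col15a1, found in basement membranes of vessels and muscle, read 132.3 in transgenic skin and 186.3 in wild-type skin (-0.49). Col18a1, the source of endostatin, read 307.0 in transgenic skin and 307.3 in wild-type skin by a probe set with a cross-hybridisation mark in its name, and 290.9 against 239.1 by the other (0.28). Skeletal muscle markers read lower on the transgenic array, as Col15a1 did: 10 of 11 lay below 0 with a median of -0.51, from Acta1 (0.07) and Myh2 (-0.05) to Myh4 (-0.86) and Mylpf (-0.94), and their summed signal was 5830 in transgenic skin and 7397 in wild-type skin. Endothelial markers, of its vessel site, went the other way, with a median of 0.14 and 4 of 7 above 0. The part of muscle or vessels in the Col15a1 reading was not tested. In whole skin, fewer cells of a type and less RNA per cell cannot be told apart.

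Among FACIT collagens 3 of 4 measured genes read lower. Col14a1, a collagen on the surface of type I fibrils, read 149.9 in transgenic skin and 213.7 in wild-type skin (log2 ratio -0.51), but 94.9 and 98.7 by its other probe set (-0.06). Col16a1 read 169.3 in transgenic skin and 226.9 in wild-type skin (-0.42). Col9a1, best known from cartilage, read 64.5 in transgenic skin and 84.5 in wild-type skin (-0.39) and was at equality by its other probe set (40.9 and 40.7). Col12a1, a fibril-associated chain of dense connective tissue, stood apart from these: it read 137.6 in transgenic skin and 88.1 in wild-type skin, 1.56-fold higher. The lower direction of the class rests on probe sets whose names carry a letter suffix. Without such probe sets the median was -0.02 over Col9a1 and Col14a1, and Col12a1 and Col16a1 had no value.

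The 3 type VI chains read higher by nearly the same amount. Type VI collagen forms beaded filaments that link cells to the fibrils around them, and its monomer holds 1 product each of Col6a1, Col6a2 and Col6a3 in the common form. Col6a1 read 543.1 in transgenic skin and 426.0 in wild-type skin (log2 ratio 0.35). Col6a2 read 700.0 in transgenic skin and 544.8 in wild-type skin (0.36) and, by its second probe set, 548.9 and 398.6 (0.46). Col6a3 read 493.2 in transgenic skin and 378.5 in wild-type skin (0.38). All 4 probe sets were higher on the transgenic array, by 1.27-fold to 1.38-fold. The highest, the second of Col6a2, carries a cross-hybridisation mark in its name. Both Col6a2 probe sets have a letter suffix, so this gene had no value without such probe sets. The representative readings of the 3 genes differ from each other by at most 0.03. No type VI chain reached 1.5-fold, which 6.8% of measured genes did.

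The remaining collagens were dim. Col8a1, a short-chain collagen of vessel walls and of the membrane behind the cornea, read 58.5 in transgenic skin and 48.7 in wild-type skin (log2 ratio 0.26), with its other probe set below the floor. The transmembrane collagens Col13a1 and Col25a1 gave log2 ratios of -0.19 and 0.04. Col10a1, a marker of hypertrophic cartilage, read 4.8 and 4.0 on the transgenic and wild-type arrays.

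The distance between probe sets of the same gene is the only measure of technical spread in these data. Over 13 pairs of probe sets from 11 collagen genes, all above the floor on both arrays, the median distance was 0.37 on the log2 scale, against 0.21 over 5342 pairs of 2524 other genes. Of these pairs 7 (53.8%) had opposite signs among the collagens and 34.4% among the other genes. The furthest apart were those of Col1a1 (0.96) and of the dim Col5a1 probe set against its partners (0.77 and 0.79). The closest were the bright Col5a1 probe sets (0.02), then those of Col6a2 and Col4a1 (0.10 each). In Col1a1, Col3a1, Col5a2, Col9a1 and Col18a1 the probe sets had opposite signs, and so lay further from each other than from equality. The same held for the dim probe set of Col5a1 against the bright ones. Both probe sets of Col1a2, Col4a1, Col4a5, Col6a2 and Col14a1 read in 1 direction.

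**Figure D3:**
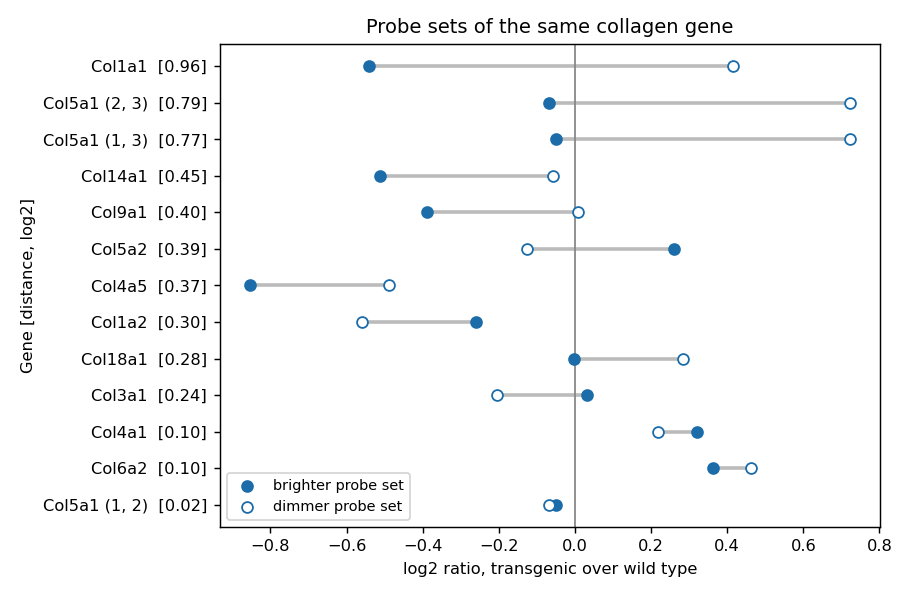
Log2 ratio of the transgenic over the wild-type signal for pairs of probe sets of the same collagen gene, filled for the brighter and open for the dimmer one, with their distance in square brackets; numbers in round brackets name which of the 3 Col5a1 probe sets are paired. The line of Col1a1 is the longest, and 7 of the 13 lines cross 0.

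The promoter windows of 26 of the 35 genes were in the RefSeq table, 29 windows of 300 bases that start 250 bases before a transcription start. The core of the xenobiotic response element, GCGTG on either strand, occurred in 9 of the 29 collagen windows (31.0%) and in 32.4% of all 32851 windows. The GC box GGGCGG was in 58.6% of collagen windows and 35.7% of all. The CCAAT box was in 37.9% of collagen windows and 37.4% of all, and the TATA box TATAAA in 13.8% of collagen windows and 13.6% of all. Motifs were counted on both strands, and a collagen with 2 annotated starts counts with both. The annotated starts of Col4a1 and Col4a2 lie 21 bases apart, and each window holds 1 GCGTG, outside the 78 bases that the windows share. Those of Col4a5 and Col4a6 lie 1343 bases apart. Neither window of this pair holds GCGTG, each holds 1 GC box nearer the start than the stretch printed above, and only the Col4a5 window has a CCAAT box. Windows with GCGTG belonged to genes that read higher (such as Col11a2) and lower (such as Col16a1) on the transgenic array. So did windows without it, such as those of Col6a1 (higher) and Col15a1 (lower). Any relation of the motif to direction was not tested. These matches describe letters in the windows and not binding.

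Genes that make and cross-link collagen stayed within 2-fold, as most measured genes did. Of 15 measured genes for chain modification and folding none was 2-fold higher (2.27% of all measured genes) or lower (1.09% of all). Their median log2 ratio was 0.04. P3h4, a partner of the prolyl and lysyl modification enzymes, and Plod3, a lysyl hydroxylase, were highest at 0.49 and 0.48. Plod2, the lysyl hydroxylase of the telopeptides, read 48.2 in transgenic skin and 83.4 in wild-type skin (-0.79), and P3h3, a prolyl 3-hydroxylase family member, stood at -0.56. Of 7 measured genes for propeptide removal and cross-linking 5 lay above 0, with a median of 0.15. Loxl1 and Lox, oxidases that start cross-links, were highest at 0.53 and 0.30, and Loxl4 and Pcolce, an enhancer of propeptide cleavage, lowest at -0.07 and -0.02. The second Pcolce probe set had the opposite sign, at 0.33.

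Proteins that bind fibrils diverged within their list. Of 15 measured genes 1 was at least 2-fold lower (1.09% of all measured genes) and none higher (2.27% of all), with a median of -0.10. Mfap4, a microfibril-associated protein, read 38.2 in transgenic skin and 179.7 in wild-type skin, 4.70-fold lower. Ogn, a small leucine-rich proteoglycan, followed at -0.51. Dcn, the proteoglycan decorin that coats type I fibrils, was highest, with 1721 in transgenic skin and 1221 in wild-type skin (0.49), and Prelp, of the same family, stood at 0.45. Dcn and the type I chains, which its product binds, thus read in opposite directions by their brighter probe sets.

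Partners of type IV in the basement membrane had a median of -0.11 over 12 genes. Of these 9 lay below 0, where 56.4% of all measured genes did. None was 2-fold higher (2.27% of all) or lower (1.09% of all). The laminin genes Lama3 and Lamb3, whose products join in laminin-332 under the epidermis, read 1.54-fold and 1.51-fold higher on the transgenic array. Lama5 read 136 in transgenic skin and 211 in wild-type skin (-0.64), and Lama4, a chain of vessel laminins, stood at -0.40. Keratinocyte markers read higher on the transgenic array: all 7 lay above 0, with a median of 0.56. Their summed signal was 17938 in transgenic skin and 11288 in wild-type skin. Krt1 and Krt10, keratins of the suprabasal layers, were highest at 2.61 and 0.75, and Sfn and Dsp lowest at 0.10 and 0.01. The part of keratinocytes in the laminin readings was not tested.

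Of 4 measured collagen receptors Ddr2, a receptor kinase for fibrillar collagen, was 1.52-fold higher, and the integrin gene Itga2 was lowest, at most -0.37. The list's median was -0.11. Itgb1, the common integrin partner chain, stood at -0.09 and Ddr1, a receptor kinase of epithelia, at -0.14. Neither direction held across probe sets. A dimmer one of Itgb1 read 211.0 in transgenic skin and 146.9 in wild-type skin (0.52). The 8 of Ddr1 ran from at most -0.62 to at least 0.80, and both of these extremes are bounds. Among 10 measured genes of collagen degradation and its control, Timp1, an inhibitor of metalloproteases, was 4.38-fold higher and the only one past 2-fold higher (2.27% of all measured genes), and the median was 0.23. Mmp9, a gelatinase, was 1.54-fold higher. Fap, a peptidase of activated fibroblasts, was lowest at -0.77, and Pepd, which cleaves proline dipeptides left by collagen breakdown, stood at -0.02.

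Transforming growth factor beta is a main inducer of fibrillar collagen in fibroblasts. Of 13 measured genes of its pathway 1 was at least 2-fold higher (2.27% of all measured genes) and none lower (1.09% of all), with a median of -0.05. The receptor gene Tgfbr2 read 647 in transgenic skin and 310 in wild-type skin (2.09-fold higher), with its other probe sets below the floor on both arrays. The ligand gene Tgfb1 stood at 0.46. Ltbp4, which stores the latent ligand in the matrix, was lowest at -0.73, followed by Smad7, an inhibitor that the pathway induces, at -0.59.

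**Figure D4:**
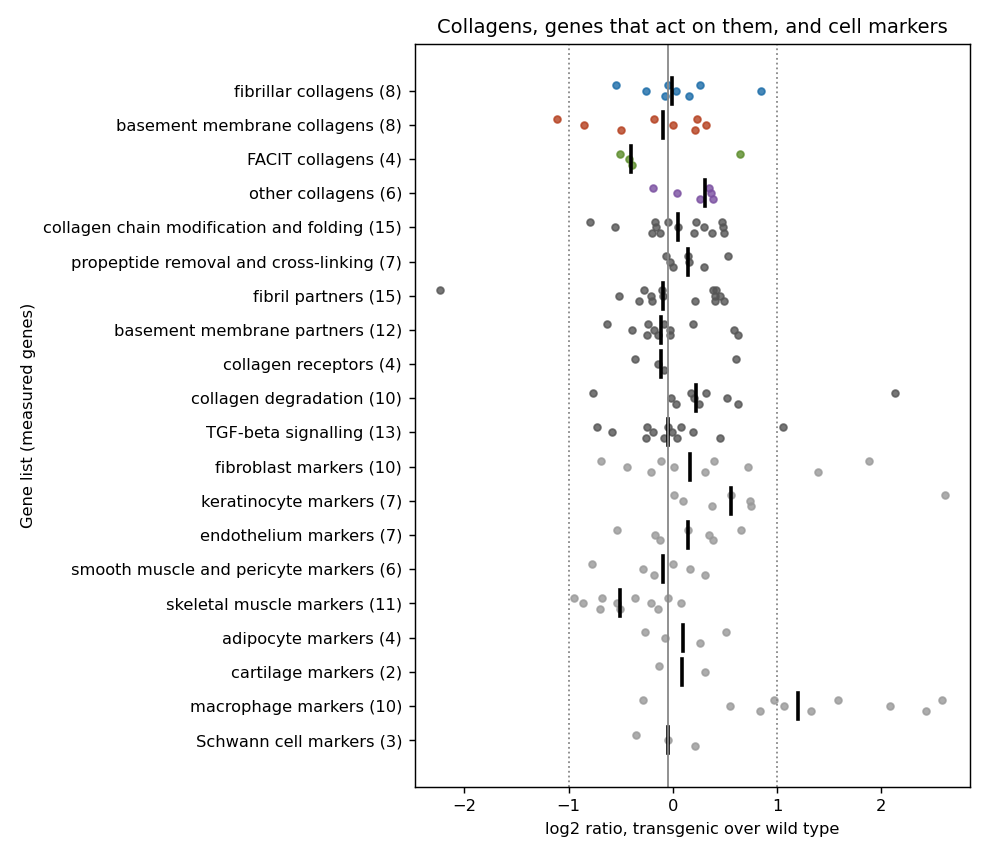
Log2 ratio of the transgenic over the wild-type signal for each measured gene of the collagen classes, the lists of genes that act on collagen and the cell marker lists; bars are list medians, the solid line is the median of all measured genes (-0.05), dotted lines mark 2-fold, and counts in brackets are measured genes. Collagen classes and the genes that act on them centre between -0.41 and 0.31, while macrophage markers centre at 1.20 and skeletal muscle markers at -0.51.

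Markers of the cells that make collagen did not give 1 direction. Of 12 fibroblast markers 10 were measured, 2 of them at least 2-fold higher (2.27% of all measured genes), and the median log2 ratio was 0.16. Their summed signal was 2879 in transgenic skin and 1973 in wild-type skin, of which Vim alone gave 1421 and 865. Of the 10 genes 6 lay above 0 and 4 below. S100a4, also made by leukocytes, was 3.68-fold higher, and Pdgfra, a growth factor receptor of dermal fibroblasts, 2.63-fold, while Dlk1, a marker of immature mesenchyme, stood at -0.69 and Mfap5, a microfibril gene, at -0.44. Twist1 and Crabp1 were below the floor on both arrays. The second Pdgfra probe set was at least 0.18. The part of fibroblast number in the collagen readings was not tested.

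Macrophage markers read higher on the transgenic array. Of the 10, all measured, 6 were higher by 2-fold or more, where 2.27% of all measured genes were, and the list had a median of 1.20 and a summed signal of 2186 in transgenic skin and 812 in wild-type skin. C1qa and Mrc1 were the highest at 2.59 and 2.43, and Adgre1 and Msr1 the lowest at 0.54 and -0.29. Endothelial markers had a median of 0.14 over 7 genes, with Kdr at 0.65, Cdh5 at 0.38, Flt1 at -0.17 and Tek at most -0.54; Tie1 was below the floor. Smooth muscle and pericyte markers had a median of -0.09 over 6 genes, from Myh11 (0.30) and Acta2 (0.16) to Tagln (-0.28) and Actg2 (-0.77). Adipocyte markers had a median of 0.10 over 4 genes, with Cidec at 0.51, Retn at 0.26, Adipoq at -0.07 and Fabp4 at -0.26. Schwann cell markers had a median of -0.05 over 3 genes, Pmp22 (0.21), Sox10 (-0.05) and Mbp (-0.35). The representative probe set of no marker gene had a signal of 0 on either array, and the part of these cells in the collagen readings was not tested.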

How the data were processed

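Biotin-labelled total RNA of back skin was hybridised to 1-colour arrays, 1 per genotype, per the labels. The authors deposited linear signal intensities, and a probe set has 1 on each array. Their 2% trimmed mean (both tails cut) was 100.03 on both arrays, so the authors had already scaled them; with what software was not given. Collagen signals are printed as deposited and other signals after a second scaling to the same trimmed mean.

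Of 22690 probe sets 64 were controls. Of the rest, 20380 had 1 gene in the 2016 platform annotation, 691 several and 1555 none. Symbols were updated through the gene identifier (gene table of GRCm38.p6), where 29 were not found. Ratios, floor and calls are defined in the report (Python 3.11.15, numpy 2.4.6, pandas 2.3.3), and the calculation was tested on simulated arrays with known changes. These changes were set only in genes well above the floor on both arrays, so the simulation did not cover ratios that are bounds.

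Every collagen gene is accounted for; of the other lists the 2 highest and 2 lowest measured genes are named (fewer where fewer were measured). Exceptions were chosen after their values were seen. They are Itgb1 and Ddr1 of a list of 4, Vim of the fibroblast list, and the lists' genes below the floor. Cyp1a1 and Ahr, which are in no list, were chosen in the same way. Members and lists were chosen with earlier results of these data known. The number of arrays limits the precision. Alternatives were other scalings, floors, probe set rules and fold limits.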

Additional observations from a re-analysis of the deposited data

How the results depend on the processing

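No paired analysis was possible because each genotype has 1 array. The technical spread used to judge shifts was the SD between probe sets of a gene, 0.27 on the log2 scale for a single probe set. The count of 1 collagen gene at least 2-fold lower became 0 with the floor at the 60th percentile, 0 with a pseudocount of 16 and 0 at a limit of 3-fold, and at a limit of 1.5-fold the counts were 2 higher and 2 lower. The median of FACIT collagens was -0.025 and that of collagen receptors 0.22 with only probe sets without a letter suffix, an alternative that leaves fewer genes. The median of all measured collagens ran from -0.03 to 0.06 over the alternatives. Of 26 measured collagen genes 21 kept their sign under the other scalings, floors and probe set rules in which they were measured; Col3a1, Col5a1, Col9a1, Col11a1 and Col18a1 did not. The other Col1a1 probe set, an alternative chosen after the values were seen, put Col1a1, 1 of the 21, at 0.41 and put the fibrillar median at 0.10. Low signals limit Col4a6, Col11a2 and the 9 genes below the floor.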
